A study of Schizosaccharomyces pombe with 6 samples.

Results

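A pair of forms of the same kinase was compared in the fission yeast Schizosaccharomyces pombe: cells overexpressing Spc1K49R and cells overexpressing Spc1. The comparison used 4 of the 6 arrays of the study, taken by their transfection labels, with 2 arrays labelled as biological replicates for each form. The other 2 arrays came from cells with the empty vector, which entered only for the spread of the fit and as a reference for where the values lie. The labels call the empty-vector strain wild, and give no further genotype, vector name, promoter, induction time or growth condition, so what else the 3 groups share is not known here. Total RNA was hybridised as biotin-labelled cRNA to Affymetrix Yeast Genome 2.0 arrays, which carry probe sets for S. pombe and for Saccharomyces cerevisiae.

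Spc1, also named Sty1, is the stress-activated MAP kinase of fission yeast. It is phosphorylated by the MAP kinase kinase Wis1 and acts on the transcription factor Atf1, on translation and on the timing of mitosis, and cells lacking it mate and sporulate poorly. K49R names the replacement of lysine 49 by arginine. This lysine is the conserved one of the ATP-binding site, whose replacement by arginine is a standard way to take catalytic activity from a protein kinase, so the pair of strains sets an overexpressed kinase beside its form with the altered active site.

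Values are log2 signals, and in the deposited form each probe set is centred on its own median across the 6 arrays. A value of 0 is that median, and differences between arrays can be read but levels of different genes cannot be compared. All differences below are Spc1K49R minus Spc1 on this log2 scale. The files named 76 S. pombe probe sets, 72 with 1 gene and 4 with several, of 8960 probe sets tested. The 8960 also hold S. cerevisiae probe sets, 113 of them named, so shares over all probe sets mix both species. The 76 S. pombe probe sets are the members described here, and no filter beyond the authors' own selection was put on their values. Their names come from 3 tables of differences that the authors had selected on these same arrays. Of the 76, 28 stand in the authors' deposited table that compares the 2 forms, and 48 only in the tables against empty vector, which share the Spc1 or the Spc1K49R arrays. The directions and sizes below are therefore descriptions of selected genes, and no measure independent of that selection was at hand.

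The gene that encodes the overexpressed kinase was read first. For sty1 the 2 Spc1 arrays had 1.04 and 1.49, Spc1K49R replicate 1 had 1.20 and Spc1K49R replicate 2 had -1.37. The empty-vector arrays had -1.07 and -1.04, so the array labelled Spc1K49R replicate 2 lay below cells without an overexpression construct and goes against its label, and the other 3 arrays lay together well above. The mean difference of -1.35 (SE 0.83) was smaller than the gap between the 2 Spc1K49R arrays, and limma, fitted over all probe sets, gave an adjusted p of 0.717. Of the 26 genes listed for the Sty1 pathway only sty1 had a name in the files, and of 18 core stress response genes none had, so the pathway's own targets were not analysed here.

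A second feature separates the arrays. The mean 5' minus 3' signal of 6 S. pombe control genes was -1.53 on Spc1 replicate 1, -0.10 on Spc1 replicate 2, 0.07 on Spc1K49R replicate 1 and 0.34 on the array labelled Spc1K49R replicate 2. It was -0.56 on empty vector replicate 1 and 0.40 on empty vector replicate 2. Over all probe sets tested, values had an SD of 0.82 on Spc1 replicate 1 and of 0.11 to 0.31 on the other 5 arrays. Spc1 replicate 1 is thus low at the 5' ends and wide in its values, and the array labelled Spc1K49R replicate 2 lacks raised sty1. Spc1K49R replicate 1 minus Spc1 replicate 2 is the only pairing of the 2 forms that uses neither, and at sty1 these arrays differ by -0.29. Every mean for Spc1K49R below includes the array whose sty1 goes against its label. The single-pair difference is therefore given beside the mean differences. It has 1 array a side and so no spread of its own. In limma's fit of it the spread came from the empty-vector arrays alone, so nothing is read from the number passing there. The 5' signal may bear on any value of Spc1 replicate 1, and its part in the results was not tested beyond the values given.

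**Figure D1:**
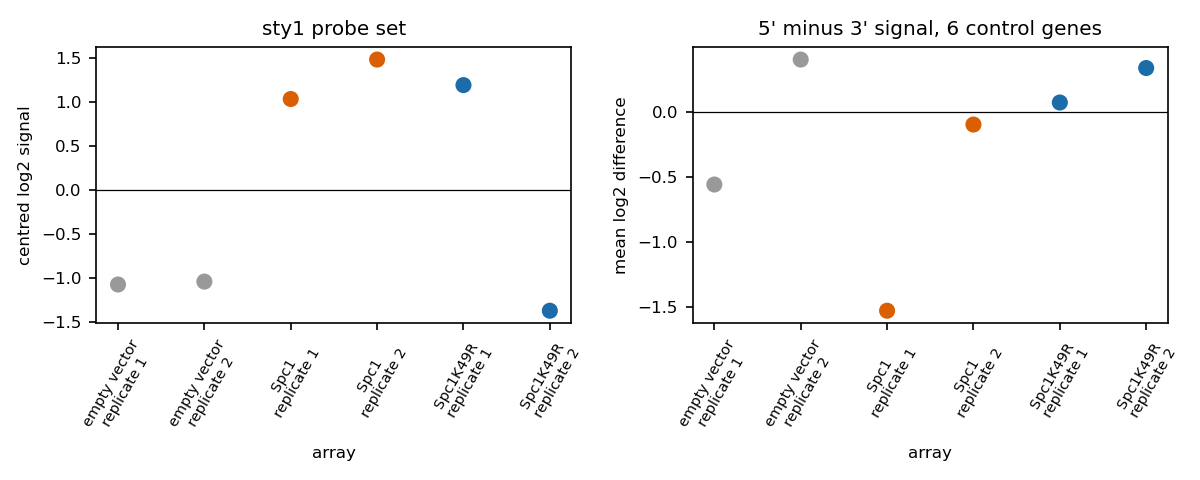
Left, centred log2 signal of the sty1 probe set on each of the 6 arrays; right, mean 5' minus 3' log2 difference over 6 S. pombe control genes on the same arrays. Each point is 1 array: sty1 is at 1.04 to 1.49 on both Spc1 arrays and on Spc1K49R replicate 1 but at -1.37 on the array labelled Spc1K49R replicate 2, and the 5' minus 3' value is lowest, at -1.53, on Spc1 replicate 1.

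Across all 8960 probe sets tested, limma called 0 (0%) at an adjusted p under 0.05, with a smallest adjusted p of 0.717, and 91 (1.02%) at an unadjusted p under 0.05. None of the 76 members passed the adjusted threshold. Of the 12 smallest p-values, 4 belonged to S. pombe members, namely SPAC14C4.01c (atg43), urg2, SPBC25H2.10c (tan1) and meu1 with meu2, which share a probe set. The remaining 8 were 5 S. cerevisiae probe sets and 3 without a name. The number passing was 0 in each of the other fits but one: with Spc1 replicate 2 left out, so that the array with low 5' signal stood alone for Spc1, 3234 passed.

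Among the members, 43 had the Spc1K49R pair of arrays wholly above the Spc1 pair, where 21.6% of all probe sets tested did, and 17 had them below, where 14.5% did. The mean difference was above 0 for 56 of 76 members, against 56.6% of all probe sets. Because the authors chose the members on these arrays, nothing is read from the counts of groups that do not overlap. The median mean difference was 0.42 over the members and 0.05 over all probe sets tested. The median size of the single-pair difference was 0.32 over the members and 0.11 over all probe sets.

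Of the 48 members only in the tables against empty vector, 36 had the same sign in the mean and in the single pair. Over all probe sets the share was 58.4%. All 28 members of the authors' deposited table of the 2 forms did too, but there the sign was fixed. Their groups do not overlap, with 19 above and 9 below, so any pair of arrays has the sign of the mean. In the authors' deposited table their folds run from 1.31 to 2.17 with unadjusted p-values of 0.0114 to 0.0496, left unadjusted for the number of probe sets. The groups there are named mutant B and mutant C, which were matched to Spc1 and Spc1K49R only because the log2 differences agree across its 60 probe sets (Pearson correlation 0.999).

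**Figure D2:**
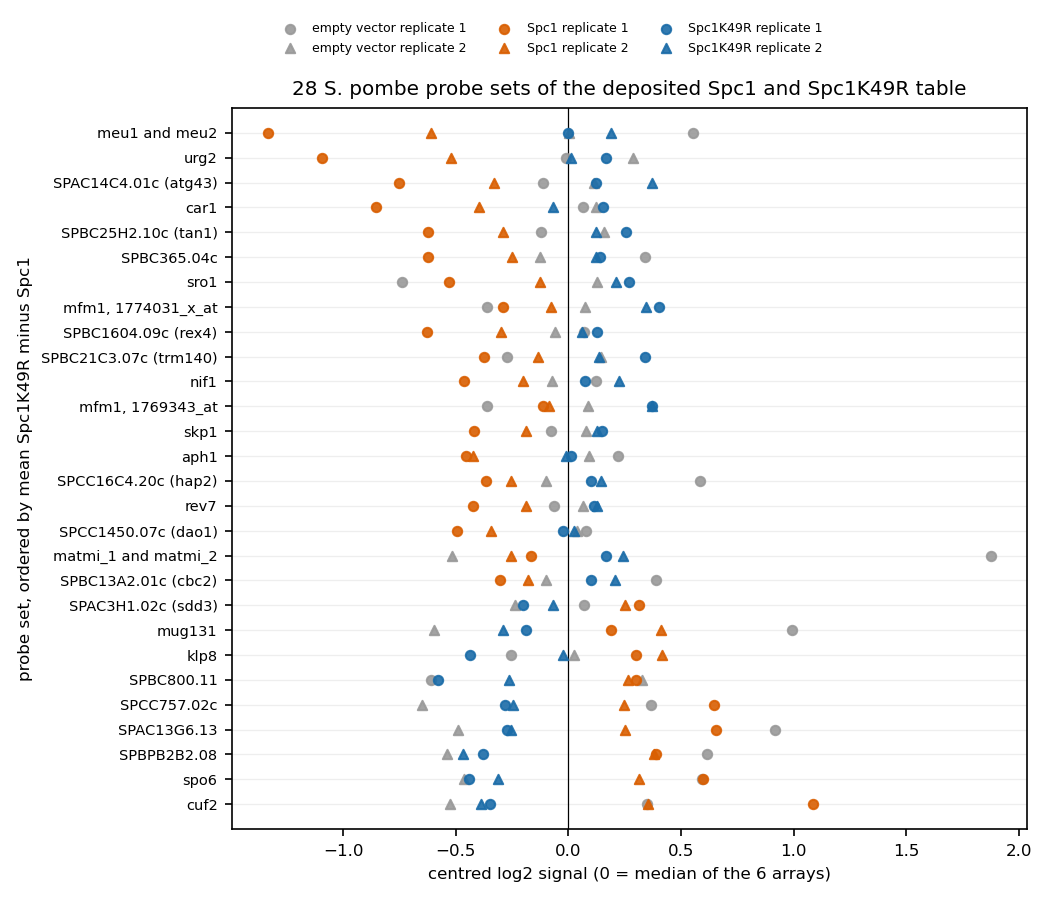
Centred log2 signal of the 28 S. pombe probe sets of the authors' deposited table of the 2 forms, 1 row per probe set ordered by mean Spc1K49R minus Spc1, with a point for each of the 6 arrays (orange Spc1, blue Spc1K49R, grey empty vector; circles replicate 1, triangles replicate 2). In the 9 lowest rows the Spc1K49R points lie left of the Spc1 points and in most of these rows the grey points spread wider than both; in the 19 upper rows the Spc1K49R points lie right of the Spc1 points.

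Of the 25 genes listed for nitrogen, uracil and amino acid metabolism 5 had a name. All 5 had a mean difference above 0, where 56.6% of all probe sets did, 4 had a single-pair difference above 0, and none passed the test. SPBC800.11, a nucleoside hydrolase gene that is not on the list, lay the other way and is given with the lower members. The gene urg2, for a predicted uracil phosphoribosyltransferase of the uracil-regulated urg cluster, had -1.09 and -0.52 with Spc1 and 0.17 and 0.01 with Spc1K49R. Both Spc1 arrays lay below the other 4, since empty vector had -0.01 and 0.29. The mean difference was 0.90 (SE 0.24, limma adjusted p = 0.717) and the single-pair difference 0.69. Its cluster neighbour urg1, for a predicted GTP cyclohydrolase II, lies 1 coding gene away in the RefSeq gene order of assembly ASM294v3. It was not in that table and had -0.81 and -0.27 with Spc1 and 0.09 and -0.09 with Spc1K49R, a mean difference of 0.54 and a single-pair difference of 0.36.

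The arginase gene car1, whose product splits arginine into ornithine and urea, had -0.85 and -0.40 with Spc1 against 0.15 and -0.07 with Spc1K49R. Its mean difference was 0.67 (SE 0.21) and its single-pair difference 0.55. The gene of a predicted D-amino acid oxidase, SPCC1450.07c (dao1), had -0.49 and -0.34 with Spc1 and -0.02 and 0.02 with Spc1K49R, with 0.42 as the mean and 0.32 as the single-pair difference. For car1 and dao1 alike the empty-vector arrays, at 0.07 and 0.12 and at 0.08 and 0.04, lay beside the Spc1K49R arrays. The fifth named gene of this list, arg7 for argininosuccinate lyase of arginine synthesis, had -0.51 and 0.06 with Spc1 and -0.11 and -0.06 with Spc1K49R. Its groups overlapped, and its mean difference of 0.14 turned to -0.17 in the single pair.

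SPCC576.01c (xan1), annotated in the files as a predicted sulfonate dioxygenase, had the largest single-pair difference of the 76 members. Its values were -1.23 and -0.44 with Spc1, 0.69 on Spc1K49R replicate 1 and -0.09 on the array labelled Spc1K49R replicate 2, and 0.09 and 0.11 with empty vector. The single-pair difference of 1.13 nearly equalled the mean difference of 1.14 (SE 0.37) while the 2 Spc1K49R arrays lay far apart. Only Spc1K49R replicate 1 stood above empty vector, and of the 2 Spc1K49R arrays it is the one with raised sty1. Both Spc1 arrays, where sty1 was raised too, lay below empty vector. SPBP8B7.05c (nce103), for a predicted carbonic anhydrase, had -0.23 and -0.38 with Spc1 and 0.14 and -0.13 with Spc1K49R. Its single-pair difference of 0.52 exceeded its mean difference of 0.31. The predicted serine acetyltransferase SPAC1039.08, of cysteine synthesis, had a mean difference of 0.45 and a single-pair difference of 0.42.

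Genes named for meiosis lay on both sides. A single probe set reads meu1 and meu2, named for their expression in meiosis. It had -1.33 and -0.61 with Spc1 and -0.0040 and 0.19 with Spc1K49R. Empty vector had 0.55 and 0.0040, so both Spc1 arrays were again the low ones. The mean difference was 1.06 (SE 0.32, limma adjusted p = 0.717) and the single-pair difference 0.61. The gene rec8, for the meiotic cohesin subunit, had -0.46 and -0.23 with Spc1 and -0.11 and 0.41 with Spc1K49R. Its mean difference of 0.49 came down to 0.12 in the single pair, since the array labelled Spc1K49R replicate 2 held the high value. The genes mug20 and mug124, found as upregulated in meiosis, had mean differences of 0.57 and 1.08 and single-pair differences of 0.24 and 0.36.

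Lower in Spc1K49R cells were spo6 and cuf2. Spo6 is the regulatory subunit of the Spo4 kinase, which is needed in the second meiotic division and for spore formation. Its values were 0.60 and 0.31 with Spc1 and -0.44 and -0.31 with Spc1K49R, a mean difference of -0.83 (SE 0.37) and a single-pair difference of -0.75. Cuf2 is a copper-fist transcription factor that works in meiosis. Its gene had 1.09 and 0.35 with Spc1 and -0.35 and -0.39 with Spc1K49R, with -1.09 (SE 0.38) as the mean and -0.70 as the single-pair difference. For both genes the Spc1K49R arrays lay close together and below both Spc1 arrays. The 2 empty-vector arrays lay apart by more than the mean difference for spo6, at 0.59 and -0.46, and by more than the single-pair difference for cuf2, at 0.35 and -0.53.

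The gene mug131, upregulated in meiosis and of unknown function in the files, had 0.19 and 0.41 with Spc1 and -0.19 and -0.29 with Spc1K49R, with 0.99 and -0.60 on the empty-vector arrays. Its mean difference was -0.54 (SE 0.52) and its single-pair difference -0.60. A further meiotic gene, mug62 for a predicted AMP-binding enzyme, had 0.59 and 0.01 with Spc1 and -0.43 and -0.18 with Spc1K49R. It had a mean difference of -0.60 and a single-pair difference of -0.44, and the empty-vector arrays, at -0.01 and 0.04, lay beside Spc1 replicate 2. The meiotic regulator mei2, an RNA-binding protein that commits cells to meiosis, was at -0.12 and 0.19 with Spc1 and at 0.15 and 0.12 with Spc1K49R, and its groups overlapped. Of 30 genes listed for meiosis and sporulation 5 had a name, on 4 probe sets, and 3 of these 4 had a mean difference above 0. None passed the test.

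The wide spread of the empty-vector arrays was common among the lower genes. These 2 arrays also differ in 5' minus 3' signal, at -0.56 and 0.40, and its part in their gap was not tested. For 6 of the 9 lower members of the table the mean difference was smaller than the gap between empty vector replicate 1 and replicate 2, and for the single pair it was smaller in 7 of 9. For the 19 higher members the difference exceeded that gap in 15 and, in the single pair, in 14. Over all probe sets tested, 56.8% had a mean difference larger than the gap and 36.7% a single-pair difference larger than it. In 14 of the 19 higher members both empty-vector arrays also lay above both Spc1 arrays, where 14.4% of all probe sets did; nothing is read from this count, since the members were selected on the same Spc1 arrays. The medians of these 19 were -0.46 and -0.25 on the Spc1 arrays, 0.14 and 0.14 on the Spc1K49R arrays and 0.07 and 0.08 on the empty-vector arrays. Those of the 9 lower members were 0.39 and 0.31 with Spc1, -0.35 and -0.26 with Spc1K49R, and 0.37 and -0.49 with empty vector. The empty-vector mean lay nearer to Spc1K49R in 15 of the 19 higher members and nearer to Spc1 in 4, among them both mfm1 probe sets and sro1. Among the 9 lower members it lay nearer to Spc1K49R in 5 and nearer to Spc1 in 4. No share over all probe sets stands beside these counts of the nearer form, and the members were selected on the same Spc1 arrays. Nothing is therefore read from them.

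The other lower members are little described. SPBPB2B2.08, a conserved fungal gene listed as subtelomeric, had 0.39 and 0.38 with Spc1 and -0.38 and -0.47 with Spc1K49R, with 0.62 and -0.54 for empty vector. Its mean difference of -0.81 (SE 0.39) and its single-pair difference of -0.76 were close. SPBC800.11, for a predicted inosine-uridine nucleoside hydrolase, which frees bases from nucleosides, had 0.30 and 0.26 with Spc1 and -0.58 and -0.26 with Spc1K49R. The mean difference was -0.71 and the single-pair difference -0.84. Here the empty-vector arrays took the opposite order, at -0.61 and 0.33.

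SPAC13G6.13, a sequence orphan, had 0.66 and 0.25 with Spc1 and -0.27 and -0.25 with Spc1K49R, and a single-pair difference of -0.52. SPCC757.02c, whose product the files call hypothetical, had 0.65 and 0.24 with Spc1 and -0.28 and -0.24 with Spc1K49R, and a single-pair difference of -0.53. In both genes the 2 Spc1K49R arrays lay close together while the empty-vector arrays, at 0.92 and -0.49 and at 0.37 and -0.65, did not. The metallopeptidase gene SPAC3H1.02c (sdd3) had 0.31 and 0.25 with Spc1 and -0.20 and -0.07 with Spc1K49R. Its mean difference was -0.42 (SE 0.17) and its single-pair difference -0.45.

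Of the cell division genes, klp8 and nif1 differed in opposite directions. Klp8 is a kinesin-like motor protein. Its gene had 0.30 and 0.42 with Spc1, -0.44 on Spc1K49R replicate 1 and -0.02 on the array labelled Spc1K49R replicate 2. The mean difference was -0.59 (SE 0.21) and the single-pair difference, at -0.85, was the most negative of all members. Without Spc1K49R replicate 1, which also makes the single pair, the difference was -0.38. Empty vector had -0.25 and 0.02, beside the Spc1K49R arrays and below both Spc1 arrays. Nif1 inhibits Cdr1, a kinase that promotes entry into mitosis by restraining Wee1. Its gene had -0.46 and -0.20 with Spc1 and 0.07 and 0.23 with Spc1K49R, a mean difference of 0.48 (SE 0.17) and a single-pair difference of 0.28.

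The gene skp1, for the adaptor subunit of SCF ubiquitin ligases, had -0.42 and -0.19 with Spc1 and 0.15 and 0.13 with Spc1K49R, with 0.44 as the mean and 0.34 as the single-pair difference. Dad3 belongs to the DASH complex, which couples kinetochores to spindle microtubules. Its gene had the largest mean difference of the members, 1.54 (SE 0.67), from -2.13 and -0.06 with Spc1 and 0.56 and 0.32 with Spc1K49R. Spc1 replicate 1 supplied most of it, and the single-pair difference was 0.62. The formin gene for3, of actin cables, had -1.62 and 0.38 with Spc1 and 0.15 and 0.21 with Spc1K49R. Spc1 replicate 2 was its highest array, so the mean difference of 0.80 turned to -0.23 in the single pair. Of 25 genes listed for mitotic entry, spindle and cytoskeleton, 2 had a name, nif1 and for3, and neither passed.

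Of 20 genes listed for mitochondria, heme and mitophagy 3 had a name, 2 had a mean difference above 0, where 56.6% of all probe sets did, and none passed the test. SPAC14C4.01c (atg43) encodes a mitophagy receptor of the outer mitochondrial membrane, which the files list only as a DUF1770 family protein. It had -0.75 and -0.33 with Spc1 and 0.12 and 0.37 with Spc1K49R, and -0.11 and 0.11 with empty vector. Its mean difference of 0.79 (SE 0.21, limma adjusted p = 0.717) compares with 0.46 in the single pair. In the RefSeq gene order 2 coding genes separate it from dad3, also among the higher members. The gene hem14, for a predicted protoporphyrinogen oxidase of heme synthesis, had -0.97 and -0.38 with Spc1 and -0.06 and 0.14 with Spc1K49R, with a mean difference of 0.71 and a single-pair difference of 0.31. Cmc1, which takes part in cytochrome oxidase assembly, had a mean difference of 0.61 and a single-pair difference of 0.25 for its gene, and the sulfhydryl oxidase gene erv1 had 0.39 and 0.33. These last 2 genes are not on the list, nor is SPAC343.13 (gta2), of mitochondrial glutamyl-tRNA amidation, which had a mean difference of 0.35 and a single-pair difference of -0.14. SPAC869.02c (yhb1), on the list and for a predicted nitric oxide dioxygenase, had a mean difference of -0.18, a single-pair difference of -0.0019 and -0.0096 without Spc1 replicate 1, so its mean rests on that array.

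The genes tan1, rex4, SPBC365.04c, trm140 and cbc2 of the table act on RNA by their annotation and were put together after their values were seen, with no test of a shared theme. SPBC25H2.10c (tan1), for a predicted tRNA acetyltransferase, had -0.62 and -0.29 with Spc1 and 0.26 and 0.12 with Spc1K49R, with 0.65 (SE 0.19, limma adjusted p = 0.717) as the mean and 0.55 as the single-pair difference. SPBC1604.09c (rex4), for a predicted exoribonuclease, had -0.63 and -0.30 with Spc1 and 0.13 and 0.06 with Spc1K49R, with 0.56 and 0.42. SPBC365.04c, for a predicted RNA-binding protein of ribosome biogenesis, had -0.62 and -0.25 with Spc1 and 0.14 and 0.12 with Spc1K49R, with 0.57 and 0.39. In all 3 genes Spc1 replicate 1 lay below Spc1 replicate 2, and both lay below the Spc1K49R arrays. The Spc1K49R arrays lay closest together for SPBC365.04c and farthest apart for tan1.

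SPBC21C3.07c (trm140), listed as an actin-binding methyltransferase and named after a tRNA methyltransferase of S. cerevisiae, had -0.38 and -0.14 with Spc1 and 0.34 and 0.14 with Spc1K49R, and its single-pair difference of 0.48 was close to the mean of 0.49. SPBC13A2.01c (cbc2), for the small subunit of the nuclear cap-binding complex, had -0.30 and -0.18 with Spc1 and 0.10 and 0.21 with Spc1K49R, a mean difference of 0.39 and a single-pair difference of 0.28. Its empty-vector arrays, at 0.39 and -0.10, were farther apart than the forms. Outside the table, SPCC162.01c (snp27), of the splicing tri-snRNP, had a mean difference of 0.44 and a single-pair difference of 0.24. The splicing gene sap49 had -2.09 and -0.19 with Spc1 and -0.03 and 0.03 with Spc1K49R, so that its mean difference of 1.14 compares with 0.16 in the single pair.

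The rest of the table concerns nucleotide turnover, DNA repair, stress and a gene annotated as a sequence orphan. The gene aph1, for a hydrolase of diadenosine tetraphosphate, had -0.45 and -0.42 with Spc1 and 0.01 and -0.01 with Spc1K49R. It was among the members least affected by the choice of arrays, with 0.44 (SE 0.13) as the mean and 0.43 as the single-pair difference. The gene rev7, for the predicted accessory subunit of DNA polymerase zeta, had -0.42 and -0.19 with Spc1 and 0.11 and 0.13 with Spc1K49R, with 0.43 and 0.30. The gene sro1, named as a stress responsive orphan, had -0.53 and -0.13 with Spc1 and 0.27 and 0.21 with Spc1K49R. Its single-pair difference of 0.39 was smaller than the gap between the empty-vector arrays, at -0.74 and 0.13. With the 5' minus 3' covariate the difference of sro1 was 0.10. SPCC16C4.20c (hap2), the gene with the orphan annotation, had -0.37 and -0.26 with Spc1 and 0.10 and 0.15 with Spc1K49R. Its mean difference was 0.43 and its single-pair difference 0.36.

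Mating genes differed by probe set. M-factor, the pheromone of M cells, is encoded by mfm1, mfm2 and mfm3. One probe set of mfm1 had -0.11 and -0.09 with Spc1 and 0.37 and 0.37 with Spc1K49R. The other had -0.29 and -0.08 with Spc1 and 0.40 and 0.35 with Spc1K49R. The mean differences were 0.47 (SE 0.19) and 0.56 (SE 0.20) and the single-pair differences 0.46 and 0.48. With the 5' minus 3' signal as a covariate both were 0.32. Both probe sets read 1 gene and close copies may share their signal. The probe set of matmi_1 and matmi_2, the mating-type M-specific Mi gene, had -0.17 and -0.25 with Spc1 and 0.17 and 0.24 with Spc1K49R, a difference of 0.41 (SE 0.77) far smaller than the gap between the empty-vector arrays, at 1.88 and -0.52.

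Other pheromone genes went different ways. The agglutinin gene mam3 had 0.47 and 0.18 with Spc1 and -0.01 and 0.0068 with Spc1K49R, a mean difference of -0.32 and a single-pair difference of -0.19. For mfm3 the mean difference was -0.18 and the single-pair difference 0.20, and for the P-factor receptor gene mam2 they were -0.08 and 0.42. Of 26 mating and pheromone genes 7 had a name, on 8 probe sets, of which 5 had a mean difference above 0. The groups lay apart above for 2 of the 8, both of them probe sets of mfm1, where 21.6% of all probe sets did, and below for 1, mam3, where 14.5% did. The probe set of matmi_1 and matmi_2 was not matched to a listed name and is not among the 8. Its groups also lay apart above. None passed the test.

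The remaining members named for their size in the single pair were SPAC27D7.09c and SPCC569.02c. SPAC27D7.09c, of the But2 family, had -1.53 and -0.50 with Spc1 and 0.27 and -0.02 with Spc1K49R, with 1.14 (SE 0.42) as the mean and 0.77 as the single-pair difference. SPCC569.02c, a hypothetical protein gene, had -1.86 and -0.06 with Spc1 and 0.66 and 0.40 with Spc1K49R, with 1.49 (SE 0.63) and 0.72. Its empty-vector values were 0.06 and -0.67. A single-pair difference of 0.5 or more was reached by 9 of the 76 members, against 0.781% of all probe sets, and -0.5 or less by 8, against 1.13%. All 8 of the negative ones and 4 of the 9 positive ones stand in the authors' deposited table of the 2 forms. Just inside this bound lay SPBP8B7.05c, at 0.52, and SPAC13G6.13, at -0.52, and just outside it mfm1, at 0.48, and SPBC21C3.07c, at 0.48.

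**Figure D3:**
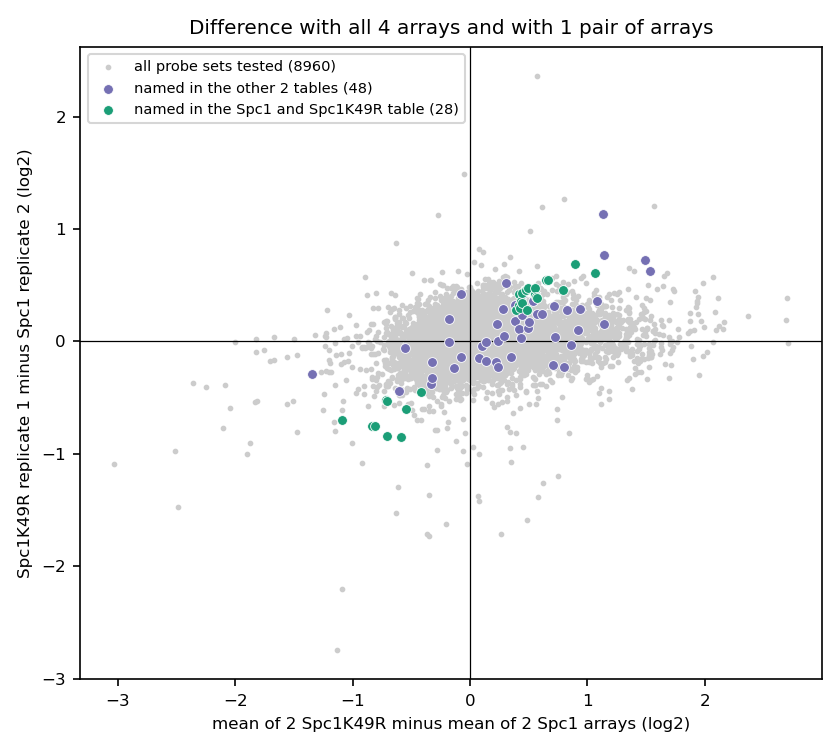
Mean of the 2 Spc1K49R arrays minus mean of the 2 Spc1 arrays (x axis, log2) against Spc1K49R replicate 1 minus Spc1 replicate 2 (y axis, log2), 1 point per probe set; the 2 axes share those 2 arrays. Grey points are all 8960 probe sets tested and run far along the x axis at y near 0. The 28 probe sets of the authors' table of the 2 forms (green) have the same sign on both axes, since their groups do not overlap. Opposite signs are seen for 12 of the 48 others (purple).

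Spc1 replicate 1 was farther from the Spc1K49R mean than Spc1 replicate 2 in 68 of 76 members, against 82.1% of all probe sets. Of the 28 members in the table of the 2 forms, 4 moved by more than 1.5 times when that array was left out: sro1, at 0.37, car1, at 0.44, cuf2, at -0.72, and the meu1 and meu2 probe set, at 0.70. Of the other 48 members 37 did, and of all probe sets tested 86.8%. The authors' choice of the 28 by their p for this contrast favours probe sets whose Spc1 arrays lie close together, so nothing is read from the gap between these counts.

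The sign turned in the single pair for 12 of these 48. They include git11, for the gamma subunit of the G protein of the glucose pathway, which had -1.65 on Spc1 replicate 1, 0.15 on Spc1 replicate 2 and 0.12 and 0.11 with Spc1K49R. Its mean difference of 0.86 became -0.03. SPCP1E11.10 (dhm1), an ankyrin repeat gene, had -1.29 and 0.36 with Spc1 and 0.15 and 0.33 with Spc1K49R, and its difference of 0.70 became -0.21. The WD repeat gene pfs2, of mRNA 3' end formation, turned from 0.24 to -0.23, SPAC343.13 from 0.35 to -0.14, and SPAC17G6.05c (bro1), of vacuolar protein sorting, from 0.22 to -0.18. The kinase gene gsk3 kept its sign but went from 0.72 to 0.04. In these genes Spc1 replicate 2 lay near or above the Spc1K49R arrays and replicate 1 alone was low.

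**Figure D4:**
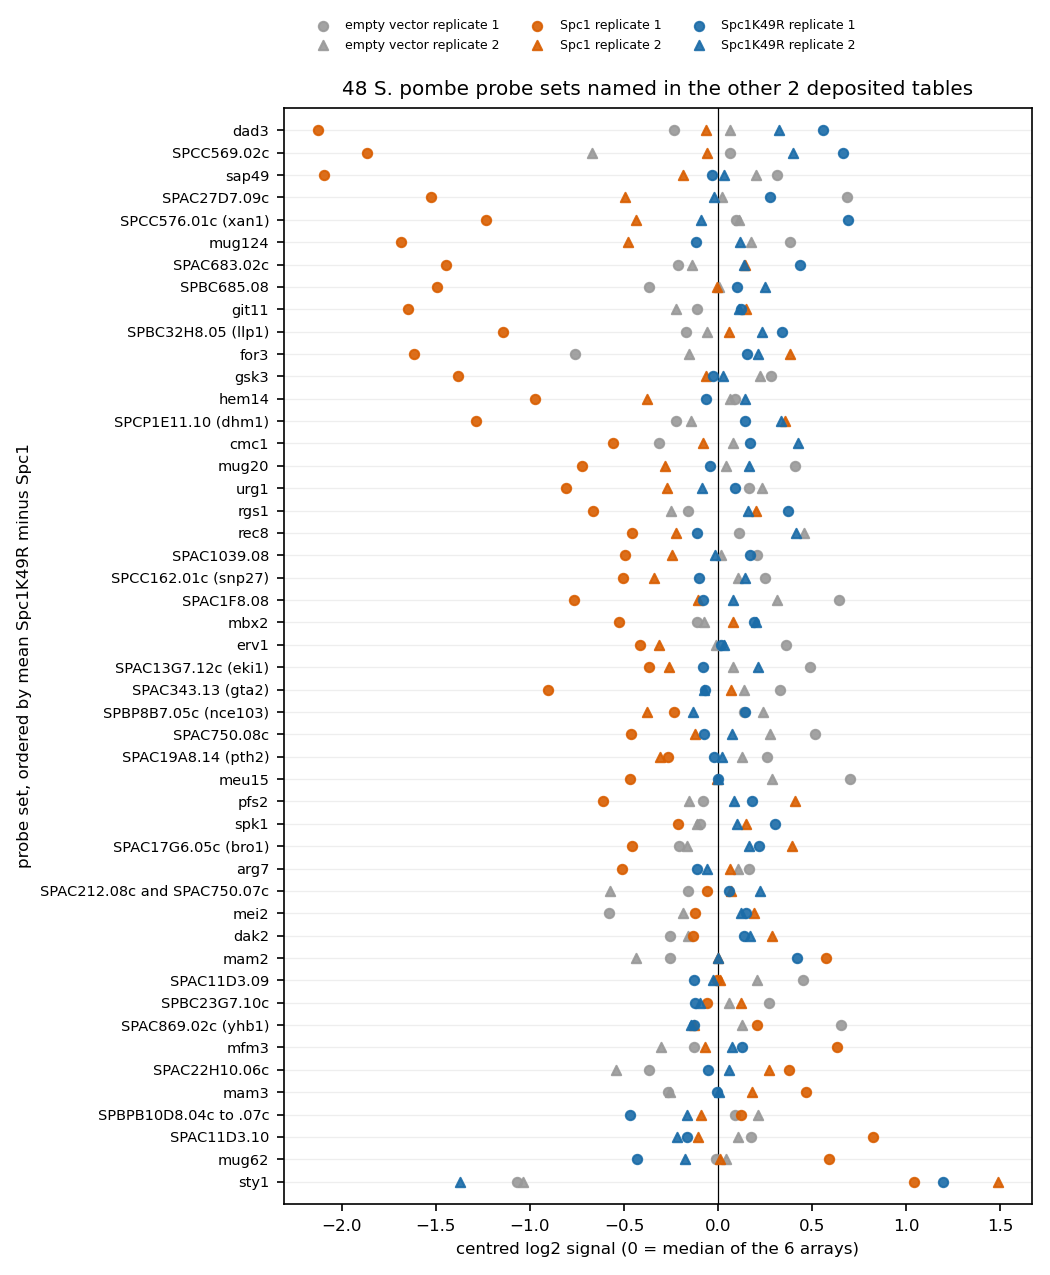
Centred log2 signal of the 48 S. pombe probe sets named only in the authors' tables against empty vector, 1 row per probe set ordered by mean Spc1K49R minus Spc1, with a point for each of the 6 arrays (orange Spc1, blue Spc1K49R, grey empty vector; circles replicate 1, triangles replicate 2). In the upper rows the orange circle of Spc1 replicate 1 lies far left, at -2.13 for dad3. Spc1 replicate 2 lies less far left there. It is near the Spc1K49R points in some of these rows and left of them in others, as for dad3 at -0.06. In the bottom row, sty1, the array labelled Spc1K49R replicate 2 is far left at -1.37.

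Of 14 genes listed as subtelomeric, 7 had a name on 6 probe sets, and none passed. The mean difference was above 0 for 3 of the 6 and below for 3, and the single-pair difference was above 0 for 1 and below for 5. The dihydroxyacetone kinase gene dak2 had 0.08 in the mean and -0.15 in the single pair, and SPAC212.08c with SPAC750.07c, for GPI-anchored proteins and read by 1 probe set, had 0.14 and -0.01. The probe set shared by 4 membrane transporter genes of the SPBPB10D8 cosmid had -0.33 and -0.38. Several of these probe sets read more than 1 near-identical gene and cannot tell the copies apart.

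With 2 arrays a form, a two-sided exact permutation test cannot reach a p under 0.05, so none was run on single genes. Replicates are called biological in the labels, with nothing on how the cultures were separated, so the p-values may measure technical spread only. In RNA from whole cultures, fewer cells that express a gene and less of its RNA per cell cannot be told apart.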

How the data were processed

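RNA of 6 S. pombe samples was measured on Affymetrix arrays, per the labels' protocols. The deposited log2 values come from the authors' normalization, whose method no source used here states, and each probe set had been centred to a median of 0 across the arrays. The authors' 3 deposited tables give log2 fold changes and unadjusted p-values. Per the file headers, raw signals from the 10th percentile to the 100th were kept, and p-values were left unadjusted for multiple testing; 6 columns of group means there were not used.

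Probe sets whose public identifier in those tables starts with SP were taken as S. pombe, and 75 of 76 matched RefSeq's gene table of assembly ASM294v3, used for symbols and gene order. No source used here gives the genome build of the array. The members and gene lists were chosen with earlier results of these data known.

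limma 3.58.1 in R 4.3.3 (lmFit, eBayes) was fitted to the 6 arrays with 1 coefficient for each group, leaving 3 residual degrees of freedom, over 8960 probe sets after 173 control probe sets were set aside, with Benjamini-Hochberg adjustment and a threshold of 0.05. It was tested on simulated data in which each probe set had the same spread on all 6 arrays. The real arrays differ in spread, so that test does not show how the fit behaves with Spc1 replicate 1. Centring removes levels, so no filter on dim probe sets was possible, and the number of arrays limits the precision. Named in full were sty1, the S. pombe probe sets among the 12 smallest p, those in the authors' table of the 2 forms and up to 6 more with the largest single-pair difference; up to 4 further members of a list are given with their values. The members mug20, mug124, SPAC1039.08, cmc1, erv1, SPCC162.01c, sap49, git11, gsk3, pfs2, SPCP1E11.10, SPAC343.13 and SPAC17G6.05c were chosen after their values were seen. Alternatives covered the arrays entering the fit, centring, robust variances, array weights, a replicate block, a covariate for the 5' minus 3' signal, the threshold and each array left out.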

Additional observations from a re-analysis of the deposited data

Results flagged for a closer look

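Control probe sets, which no comparison used, carried a signal. The poly-A controls, transcripts that can be added to RNA before labelling (39 probe sets), reached 5.23 in the median on Spc1 replicate 1 and 1.34 on Spc1 replicate 2. On the empty-vector arrays the median was 0.15 and -1.13, and on the Spc1K49R arrays -0.16 and -0.58. Both Spc1 arrays thus lay above both Spc1K49R arrays in these controls. The 27 hybridization control probe sets had medians of 3.15 and 0.16 on the Spc1 arrays and -0.16 and -0.46 on the Spc1K49R arrays. On the empty-vector arrays their medians were 0.54 and -0.38. The part of either kind of control in the differences of the yeast genes was not tested.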

How the results depend on the processing

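The number of probe sets past the adjusted threshold was 0 in limma's fits with only the 4 Spc1 and Spc1K49R arrays, with centred arrays, robust variances, array weights, the 5' minus 3' covariate, the replicate block and an adjusted p under 0.1. With 1 array left out it ran from 0 to 3234, the upper end without Spc1 replicate 2, where the lone Spc1 array is assumed to vary like the other groups. The number at an unadjusted p under 0.05, 91, became 33 with only the 4 arrays and 21 in the single pair, and ran from 3 to 4262 with 1 array left out. The replicate block gave 151. Same-numbered Spc1 and Spc1K49R arrays deviated together with a correlation of 0.10. For empty vector the correlation was 0.47 with Spc1 and 0.07 with Spc1K49R. The labels do not say that a number marks a shared culture. The 56 members with a mean difference above 0 became 48 in the single pair and 49 to 57 with 1 array left out. Signs turned for 13 members. With the 5' minus 3' covariate, in the single pair and without Spc1 replicate 1, the differences were -0.12, -0.17 and -0.15 for arg7, -0.36, -0.23 and -0.20 for for3, 0.29, 0.42 and 0.21 for mam2, -0.16, -0.15 and -0.14 for dak2, and 0.22, 0.20 and 0.17 for mfm3. In the same order they were -0.20, -0.18 and -0.20 for SPAC17G6.05c, -0.12, -0.21 and -0.12 for SPCP1E11.10, -0.058, -0.14 and -0.14 for SPAC343.13, -0.22, -0.23 and -0.28 for pfs2, and -0.17, -0.042 and -0.055 for mei2. For mam2 the value without Spc1K49R replicate 2 was 0.13. Without Spc1 replicate 2 the upper ends were 0.42 for arg7, 1.80 for for3, 0.29 for dak2, 0.65 for SPAC17G6.05c, 1.53 for SPCP1E11.10, 0.83 for SPAC343.13, 0.75 for pfs2, 0.26 for mei2 and 1.76 for git11, and the lower ends were -0.36 for mam2 and -0.53 for mfm3. For git11 the single pair gave -0.029 and the fit without Spc1 replicate 1 gave -0.034, for SPAC869.02c the covariate gave 0.15, and for SPAC212.08c with SPAC750.07c the single pair gave -0.0074. The cause was not tested. Of the 28 members in the table of the 2 forms none turned. With arrays left out none could, since their groups do not overlap. With the covariate 16 moved by more than 1.5 times, to -0.072 for SPAC13G6.13, 0.10 for sro1, -0.13 for mug131, -0.19 for SPCC757.02c, -0.37 for spo6, -0.42 for SPBPB2B2.08, -0.45 for cuf2, 0.26 for SPBC21C3.07c, 0.27 for rev7, 0.28 for skp1, 0.32 for both mfm1 probe sets, 0.41 for SPBC25H2.10c, 0.49 for SPAC14C4.01c, 0.54 for urg2 and 1.22 for matmi_1 and matmi_2. Without levels or background values, what signal over background limits was not analysed here.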
